A study of Homo sapiens with 4 samples.

Results

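miR-106a, miR-18b, miR-20b and miR-363 are encoded together on the X chromosome, and miR-106b, miR-93 and miR-25 lie together inside the gene MCM7 on chromosome 7. These 7 assays were found by miRNA name, with no measured value in the rule, out of 377 human miRNA assays on a TaqMan array, where every assay is a separate real-time PCR. The study grew K562, an established human chronic myeloid leukaemia cell line, for 24 h in 1% or 20% oxygen, and profiled the cells and the exosome fraction precipitated from their medium. It had 4 groups of 1 sample each, namely hypoxic cells, normoxic cells, hypoxic exosomes and normoxic exosomes, all of the same untransfected line with no other agent named in the labels. The authors' deposited table gives 2 fold ratios for each assay, one of sample 2 over sample 1 and one of sample 4 over sample 3. Its header does not say which oxygen level or compartment a number stands for, so every "higher" or "lower" here refers to sample 2 or sample 4 and not to hypoxia. With 1 sample on each side no ratio has a replicate error, no test was possible, and members are described by size alone.

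Both clusters are paralogs of miR-17~92, the chromosome 13 cluster known as an oncogenic driver in blood cancers. They arose with it by duplication, and the miRNAs of all 3 clusters fall into a few families that share a seed, the short stretch near the 5′ end by which a miRNA recognises its target mRNAs. miRNAs of the miR-17 family are known to restrain the cell cycle inhibitor p21 and the regulator E2F1, and those of the miR-25 and miR-92 family are known to target the pro-apoptotic protein BIM. miR-106b, miR-93 and miR-25 are cut from an intron of MCM7, a subunit of the helicase that opens DNA at replication origins, so they are made along with the transcript of a proliferation gene.

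The mature sequences are shown because the 7 miRNAs differ from each other and from their chromosome 13 relatives by few bases. They are RefSeq sequences on GRCh38.p14, matched by name to the arm that the older, unsuffixed array name stands for, and the seed, bases 2 to 8 counted from the 5′ end, is in capitals. All 13 names of members and relatives were matched. The first group has the seed AAAGUGC and holds 4 members and 2 relatives, miR-17 and miR-20a:
miR-106a: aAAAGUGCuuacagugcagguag
miR-20b: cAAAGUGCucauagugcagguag
miR-106b: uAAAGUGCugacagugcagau
miR-93: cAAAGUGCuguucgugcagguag
miR-17: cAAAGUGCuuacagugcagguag
miR-20a: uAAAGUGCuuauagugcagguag

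The second group, with the seed AAGGUGC, holds 1 member and its chromosome 13 counterpart:
miR-18b: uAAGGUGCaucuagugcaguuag
miR-18a: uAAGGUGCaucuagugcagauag

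The last group, with the seed AUUGCAC, holds 2 members, 1 from each cluster, and miR-92a:
miR-363: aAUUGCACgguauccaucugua
miR-25: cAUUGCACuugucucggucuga
miR-92a: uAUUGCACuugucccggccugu

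On GRCh38.p14 all 7 mature members read from the minus strand. In order along the X cluster transcript, miR-106a occupies chrX:134170244-134170266, miR-18b chrX:134170084-134170106, miR-20b chrX:134169850-134169872 and miR-363 chrX:134169382-134169403. On chromosome 7, miR-106b occupies chr7:100094043-100094063, miR-93 chr7:100093815-100093837 and miR-25 chr7:100093571-100093592, and all 3 lie within MCM7. Between miR-20b and miR-363 the X cluster also encodes second copies of miR-19b and miR-92a. The RefSeq mature sequences of these copies are identical to those from chromosome 13, so a ratio of miR-19b or miR-92a cannot be assigned to one cluster.

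The 2 ratios rest on different controls. In the authors' deposited table the 4 MammU6 wells stand at exactly 1 in the ratio of sample 2 over sample 1, the U6-scaled comparison, and the added plant miRNA ath-miR159a does so in the ratio of sample 4 over sample 3, the spike-scaled comparison. In the series design text a U6 control is named for cells and the plant spike for the exosome fraction. Many wells share 1 value, which the authors' deposited table gives as 1.0619 U6-scaled and 1.0796 spike-scaled, and assays at it were taken as carrying no information on a difference. That left 177 informative human assays in the U6-scaled comparison, with a median ratio of 1.05 and quartiles of 0.894 and 1.31, and 240 in the spike-scaled one, with a median of 1.10 and quartiles of 0.935 and 1.33. Cycle thresholds were not used here, so the signal behind each ratio, and hence its precision, is unknown. The K562 label could not be checked against marker levels either. Of the 6 erythroid and leukocyte markers looked for, 4 were on the array under the names used, and all 4 were informative in both comparisons. miR-144 was not found under its name. miR-486 was present as miR-486-5p and miR-486-3p, and both were informative in both comparisons. Of 10 markers of other tissues, 3 were informative U6-scaled and 5 spike-scaled. Over the array, 177 of 377 human assays were informative U6-scaled and 240 of 377 spike-scaled, so these few marker counts say nothing of identity.

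miR-18b was the member with the highest ratio in both comparisons, and the others stayed within 1.5-fold of 1. Of the 7 members, 6 were informative in each comparison, against 177 of 377 human assays U6-scaled and 240 of 377 spike-scaled. The exception in both was miR-363. At least 2-fold higher was 1 of the 6 in the U6-scaled comparison, against 10.2% of all informative assays, and 1 of the 6 in the spike-scaled one, against 8.75%. No member was at least 2-fold lower in either comparison, against 3.39% of informative assays U6-scaled and 3.33% spike-scaled. With so few members, 1 of 6 is not apart from these shares. The median ratio of the 6 informative members was 1.13 U6-scaled and 1.15 spike-scaled, beside 1.05 and 1.10 for all informative assays.

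**Figure D1:**
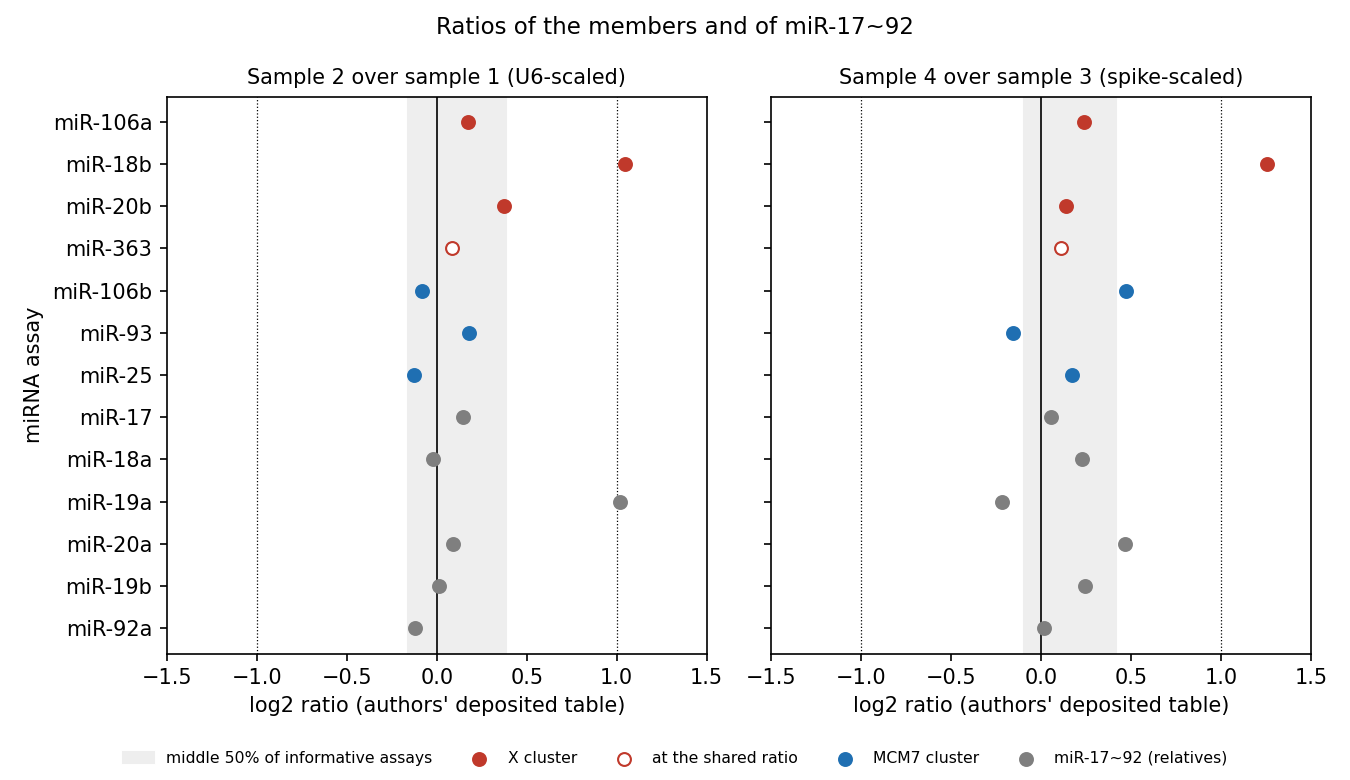
The log2 ratios of the 7 members and of the 6 miR-17~92 assays are plotted as points, with sample 2 over sample 1 on the left and sample 4 over sample 3 on the right. Grey bands span the quartiles of all informative assays, dotted lines mark 2-fold, and open points are at the shared ratio. miR-18b lies beyond 2-fold in both panels, at 1.05 and 1.26 on the log2 scale, while miR-19a does so only on the left, at 1.02.

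Within the X cluster, miR-18b stood apart from its neighbours. miR-18b, the X-linked form of miR-18, was listed by the authors' deposited table with a U6-scaled ratio of 2.07 and a spike-scaled ratio of 2.39. Of all informative assays, 16 of 177 had a higher U6-scaled ratio and 12 of 240 a higher spike-scaled one. Relative to the median informative assay its ratios were 1.98 and 2.18, so the first fell just short of 2-fold. By rank, 90.4% of informative assays lay below it in the U6-scaled comparison and 94.6% in the spike-scaled one.

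miR-106a, which differs from miR-17 by 1 base, had ratios that the authors' deposited table gives as 1.13 U6-scaled and 1.18 spike-scaled. Both values lie between the quartiles of all informative assays. miR-20b, another miRNA of the miR-17 family, had a U6-scaled 1.30 and a spike-scaled 1.10 in the authors' deposited table. Its U6-scaled ratio was near the upper quartile and its spike-scaled ratio was almost equal to the median assay, 1.00 relative to it. miR-363, which shares its seed with miR-25 and miR-92a, was at the shared ratio in both columns of the authors' deposited table, so these ratios say nothing of whether it differed.

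The 3 informative X cluster members were all above 1 in both comparisons, with medians of 1.30 U6-scaled and 1.18 spike-scaled. The medians of all informative assays, 1.05 U6-scaled and 1.10 spike-scaled, were above 1 as well, so lying above 1 is not particular to this cluster. The highest ratio, that of miR-18b, was 1.84 times the lowest U6-scaled and 2.17 times the lowest spike-scaled. Without miR-18b the medians were 1.21 and 1.14. Neighbours encoded in one cluster therefore had unequal ratios in these samples, and no replicate spread is at hand against which to judge the gap.

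In the MCM7 cluster, no member reached 1.5-fold, and each of the 3 lay on opposite sides of 1 in the 2 comparisons. miR-106b, the first of the cluster, had a U6-scaled ratio of 0.946 and a spike-scaled ratio of 1.39, as the authors' deposited table lists them. Its spike-scaled ratio exceeded the upper quartile, with 54 of 240 assays above it, and was the second highest among the members. miR-25, the cluster's miRNA of the miR-92 seed family, had ratios of 0.917 and 1.13, per the authors' deposited table, between the quartiles in both comparisons.

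miR-93, encoded between miR-106b and miR-25, ran the other way. The authors' deposited table gives it a U6-scaled ratio of 1.13 and a spike-scaled ratio of 0.899. It was the only one of the 6 informative members below 1 in the spike-scaled comparison, where 20.0% of informative assays were lower still. The cluster's median was 0.946 U6-scaled and 1.13 spike-scaled, and its highest ratio was 1.24 and 1.54 times its lowest. The U6-scaled spread was narrower than that between quartiles of all informative assays, and all 3 values lay between those quartiles. The spike-scaled spread was wider than that between quartiles, and 1 of the 3 values, that of miR-25, lay between them.

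**Figure D2:**
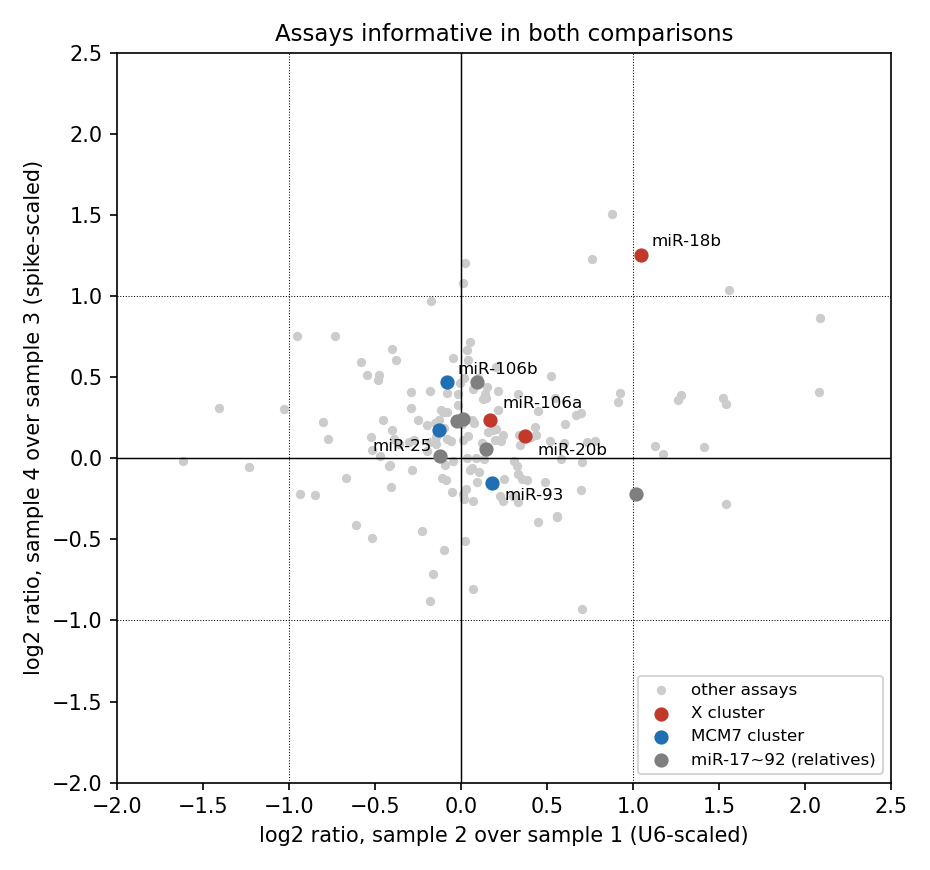
Each point is an assay informative in both comparisons, by its log2 ratio of sample 2 over sample 1 (horizontal axis) and of sample 4 over sample 3 (vertical axis), with dotted lines at 2-fold; 168 assays are drawn and 5 lie outside the axes. miR-18b is in the upper right corner beyond 2-fold on both axes, and the other 5 informative members sit in the crowded centre.

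The difference between the 2 log2 ratios, spike-scaled minus U6-scaled, was 0.07 for miR-106a, 0.21 for miR-18b and -0.24 for miR-20b. In the MCM7 cluster this difference was 0.55 for miR-106b, -0.33 for miR-93 and 0.30 for miR-25. Over the 173 assays informative in both comparisons its median was 0.07, with quartiles of -0.39 and 0.42. Only the difference of miR-106b lay outside those quartiles. Opposite sides of 1 were common, at 49.1% of the 173 assays, so the 3 of 6 members found there do not stand out from the array.

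miRNAs of one seed had unequal deposited ratios, with no replicate spread against which to judge the gaps. In the authors' deposited table, the 4 members with the seed AAAGUGC, shown above, ranged between 0.946 for miR-106b and 1.30 for miR-20b U6-scaled, and between 0.899 for miR-93 and 1.39 for miR-106b spike-scaled. Their medians were 1.13 and 1.14. All 4 lay between the quartiles of all informative assays U6-scaled, and 2 of the 4 did so spike-scaled. miR-18b, alone among the members in having the seed AAGGUGC, was above all 4 in both comparisons. Of the pair with the seed AUUGCAC only miR-25 was informative.

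Set against a close relative in miR-17~92, miR-18b had a ratio more than 2-fold that of the relative in both comparisons. In the pairs compared for the other informative members, the member's ratio lay between 0.795 and 1.33 times the relative's. Substitutions are written with the member's base first, then the position from the 5′ end, then the relative's base. miR-18b differs from miR-18a by U20A alone, while the ratios of miR-18a were 0.984 U6-scaled and 1.17 spike-scaled, per the authors' deposited table. The ratio of miR-18b was therefore 2.10 and 2.04 times that of miR-18a. This is a ratio of 2 assays, each with 1 well on the array, and how far one assay also reads the other miRNA was not tested.

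miR-106a differs from miR-17 by A1C alone, and its ratio was 1.02 times that of miR-17 U6-scaled and 1.13 times it spike-scaled. For miR-17 itself the authors' deposited table gives 1.11 and 1.04. miR-20b differs from miR-20a by C1U and C10U, and its ratio was 1.22 and 0.795 times that of miR-20a. miR-20a had ratios of 1.06 and 1.38, per the authors' deposited table, the second value almost equal to that of miR-106b, from which miR-20a differs at 3 positions over the 21 bases compared. miR-25 differs from miR-92a at 4 of 22 positions, and the ratio of miR-25 was 0.997 and 1.12 times that of miR-92a. miR-93 differs from miR-17 at 4 positions, and its ratio was 1.02 and 0.864 times that of miR-17. miR-106b differs from miR-17 at 3 of the 21 positions compared, and its ratio was 0.856 and 1.33 times that of miR-17.

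Of the 6 assays of miR-17~92, all were informative in both comparisons. miR-19a, which has the seed GUGCAAA found in no member, had ratios of 2.02 U6-scaled and 0.860 spike-scaled, per the authors' deposited table, and was the only one of the 6 past 2-fold, in the first comparison. miR-19b, encoded on both chromosomes 13 and X, had ratios of 1.01 and 1.18, per the authors' deposited table. For miR-92a, likewise encoded on both, the authors' deposited table gives 0.920 and 1.01. The miR-17~92 medians were 1.04 U6-scaled and 1.10 spike-scaled, below those of the X cluster in both comparisons and of the MCM7 cluster in the second.

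The assays nearest each cluster's median, in the plane of the 2 log2 ratios, were sought among the 167 non-member assays informative in both comparisons. That median was taken on each axis separately and matched the position of no single member. Nearness to it is therefore not nearness to every member. Nearest to the X cluster's median were miR-597, miR-21 and miR-132, at distances of 0.07, 0.09 and 0.10. Nearest to the MCM7 cluster's median were miR-365, miR-376c and miR-212, at 0.02, 0.05 and 0.07. None of these 6 belongs to miR-17~92, which supplied only 6 of the 167 candidates, so that absence says nothing of likeness to it. Likeness here rests on 2 ratios only.

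The choice of control bears on the sides of 1 more than on the order. With RNU44 and RNU48, small nucleolar RNAs on the same array, averaged as the control, the U6-scaled ratios were 2.33 for miR-18b, 1.07 for miR-106b and 1.04 for miR-25, so that miR-106b and miR-25 moved above 1. The authors' deposited table gives U6-scaled ratios of 0.8014 for RNU44 and 0.9795 for RNU48. Relative to RNU48 alone, miR-106b was at 0.966 and miR-25 at 0.936, both below 1. RNU44 alone was not used as a control. Another control shifts all members of a comparison by one factor, so their order within it stays as it is.

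**Figure D3:**
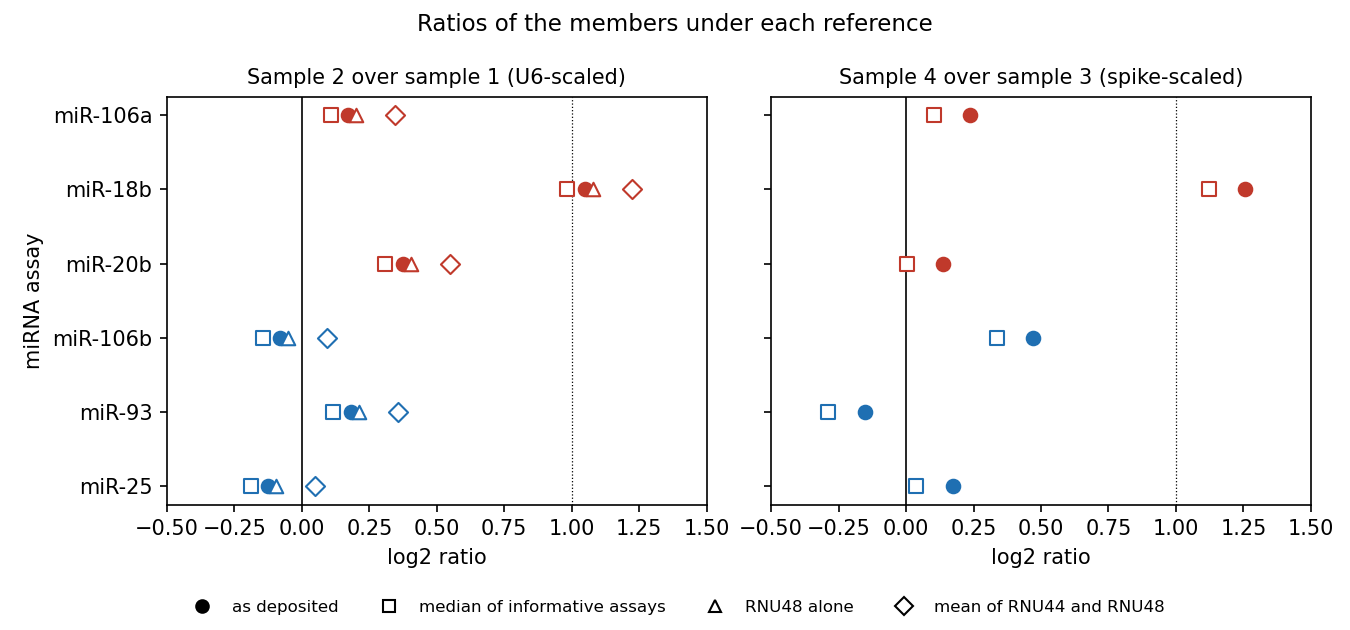
The log2 ratio of each informative member is plotted as deposited (filled points) and relative to other references (open symbols), with sample 2 over sample 1 on the left and sample 4 over sample 3 on the right; the dotted line marks 2-fold. miR-18b drops just under 2-fold on the left relative to the median assay, at a ratio of 1.98. Of the references drawn, only the average of RNU44 and RNU48 takes miR-106b and miR-25 across 1, and RNU44 alone was not used.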

How the data were processed

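Fold ratios were made by the authors in Data Assist 3.1 from TaqMan Human miRNA Array A reactions, per the series design text and the deposited file headers. Per the labels' protocols a fixed volume of RNA entered reverse transcription, and exosome products were amplified further. The deposited ratios were read for 384 wells, 377 of them human assays, without a pseudocount. A second table holds 4 columns of cycle thresholds headed by sample numbers that no sample label carries. These 4 columns could be assigned to no sample by name and were left out, so the planned filters on late cycles, unscaled differences and orders of level were not computed. An assay was informative unless at the commonest ratio of its column. Equal raw values in both samples would give such a ratio, and why they would be equal was not examined. Control wells stood at it too, the plant spike ath-miR159a in the U6-scaled comparison and MammU6, RNU44 and RNU48 in the spike-scaled one. Whether the assays at it, miR-363 among them, were detected at all was not tested. Ratios were compared by size, with limits of 2-fold and, as alternatives, 1.5-fold and 1.25-fold. Only the counting of ratios past 2-fold was checked on simulated data with planted shifts, which says nothing of how precise the deposited ratios are.

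The named miRNAs are the 7 members, the 6 of miR-17~92, control wells and, per cluster, the 3 nearest assays. Members were found by name, but the choice to describe these clusters, and the choice of lists, was made with earlier results of these data known. Sequences and neighbours came from RefSeq, GRCh38.p14; the authors' table names no build. Python 3.11.15, numpy 2.4.6, pandas 2.3.3 and matplotlib 3.10.9 were used. Assays of near-identical miRNAs can cross-react.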

Additional observations from a re-analysis of the deposited data

Results flagged for a closer look

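Ratios on opposite sides of 1 in the 2 comparisons drew attention to 3 members and 3 relatives. Of the 173 assays informative in both comparisons, 49.1% were on opposite sides of 1, so neither members nor relatives stand out by this. The spike-scaled minus U6-scaled log2 ratio was 0.55 for miR-106b, -0.33 for miR-93 and 0.30 for miR-25. Among the relatives it was 0.25 for miR-18a, -1.23 for miR-19a and 0.14 for miR-92a. These differences were not tested, since each comparison has 1 sample on each side, and the side of 1 of miR-106b, miR-25, miR-18a and miR-92a also changes with the control.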

How the results depend on the processing

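No paired analysis was possible because there were no replicates, and for the same reason none was left out. Cycle threshold limits, unscaled differences and the order of levels were not run, because the columns they need were not used. With no replicate spread, any shift of a median counts as a move. Relative to the median informative assay, the members' median was 1.08 U6-scaled and 1.05 spike-scaled, against 1.13 and 1.15 as deposited, and 0 members were 2-fold higher U6-scaled, since miR-18b fell to 1.98. With RNU44 and RNU48 averaged as the control the U6-scaled median was 1.27, and with RNU48 alone 1.15. Without miR-18b, an alternative chosen after seeing the data, the medians were 1.13 in both comparisons. At 1.5-fold the counts were those at 2-fold, and at the lowest planned limit 2 members were higher in each comparison. These were miR-18b with miR-20b at 1.30 U6-scaled and with miR-106b at 1.39 spike-scaled in the authors' deposited table. The upper quartiles of all informative assays, 1.31 U6-scaled and 1.33 spike-scaled, also lay above that limit. Being past it was therefore not particular to the members. Shares of all informative assays past these lower limits were not counted. Ratios that crossed 1 were, relative to the median assay, miR-19b at 0.964 U6-scaled, and miR-17 at 0.948 and miR-92a at 0.921 spike-scaled. With the averaged RNU44 and RNU48, they were miR-106b at 1.07, miR-25 at 1.04, miR-18a at 1.11 and miR-92a at 1.04, and relative to RNU48, miR-18a at 1.00.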
